A study of Mus musculus with 12 samples.

Results

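Complement components and regulators that connective tissue cells are known to make were compared between side population cells of mouse extraocular muscle and of tibialis anterior muscle. The set held 9 genes: C3, C4b, C2, Cfb, Cfd, C1ra, C7, Serping1 and Cd55. A probe set was taken when its only gene symbol in the platform's probe-to-gene table was 1 of these names. That rule found 9 of the 45037 non-control probe sets on the array, for 5 of the 9 genes: 3 for C2, 1 for Cfb, 1 for C1ra, 1 for Serping1 and 3 for Cd55. All 9 probe sets passed the filter on low signal, which left 27023 probe sets and 13068 named genes tested. C3, C4b, Cfd and C7 were not analysed here.

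Side population cells are cells that pump out a DNA-binding dye and are sorted by that property. The extraocular group (EOM) was side population cells from the muscles that move the eye, and the tibialis anterior group (TA) was side population cells from that muscle of the lower leg. Each group had 6 separately isolated preparations numbered 0, 1, 2, 3, 5 and 6, with 1 Affymetrix Mouse 430 2.0 array each. No strain, genotype, sex, age or treatment is given in the labels used here, nor whether animals were pooled. Abcg2, the dye efflux transporter of side population cells, was lower in EOM. It averaged 650 ± 322 in EOM against 2668 ± 728 in TA (SD, n = 6 each, log2 fold change -2.23 ± 0.42, limma adjusted p = 0.00206). On the array of EOM preparation 1 it read 100.3, where the median signal of the array was 87.2.

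Complement is a system of plasma and membrane proteins, some of them proteases, that marks surfaces for uptake and attack. In the classical pathway the C1r protease, in mouse C1ra, activates its partner C1s, and C1s then cuts C2, whose fragment is the protease of the enzyme that cleaves C3. Factor B (Cfb) does the same work in the alternative pathway. C1 inhibitor (Serping1) inactivates C1r and C1s, and Cd55, or decay-accelerating factor, dissociates the C3-cleaving enzymes on the cell's own membrane. The liver makes most plasma complement, but fibroblasts and macrophages are also known to make several components locally, and interferon-gamma and inflammatory cytokines are known to induce them.

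Signals are array intensities on which each array has the same trimmed mean. Changes are differences of log2(signal + 16), EOM minus TA, with their standard error, and a probe set was called when its adjusted p from limma was under 0.05. Arrays EOM 1, TA 3 and TA 5 stood apart from the other 9 arrays. Their median signal was 63.2 to 87.2, against 31.2 to 43.4 on the others, and the ratio of the 3' to the 5' control probe set of beta-actin, which rises as RNA or its amplified product gets shorter, was 100.2 to 165 on them and 5.27 to 68.6 on the others. The mean correlation of EOM 1 with the other EOM arrays was 0.632. Calls are given with and without these arrays.

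Of the 5 genes analysed, 4 rose in EOM (Cfb, C1ra, Serping1 and C2), 0 fell, and Cd55 did not pass the test. Over all 13068 genes tested, 4.05% were called higher in EOM and 6.81% lower. The median change of the 5 genes was 1.46, against -0.04 over all genes. The set was chosen with earlier results of these data known, so this comparison is no independent test. At the level of probe sets, 4 of 9 were called higher, against 3.20% of all probe sets. Without EOM 1 the same 4 genes passed, where 10.0% of all genes were called higher and 10.5% lower. Without EOM 1, TA 3 and TA 5 they passed too, where 10.6% of all genes were called higher and 11.2% lower. With every array centred on its median C2 alone passed, and without EOM 5 and TA 5 together 0 of 5 did, with an adjusted p of 0.0534 for C1ra, 0.0567 for C2, 0.0638 for Serping1 and 0.138 for Cfb. In bulk samples such as these, fewer cells of a type and less RNA per cell cannot be told apart.

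**Figure D1:**
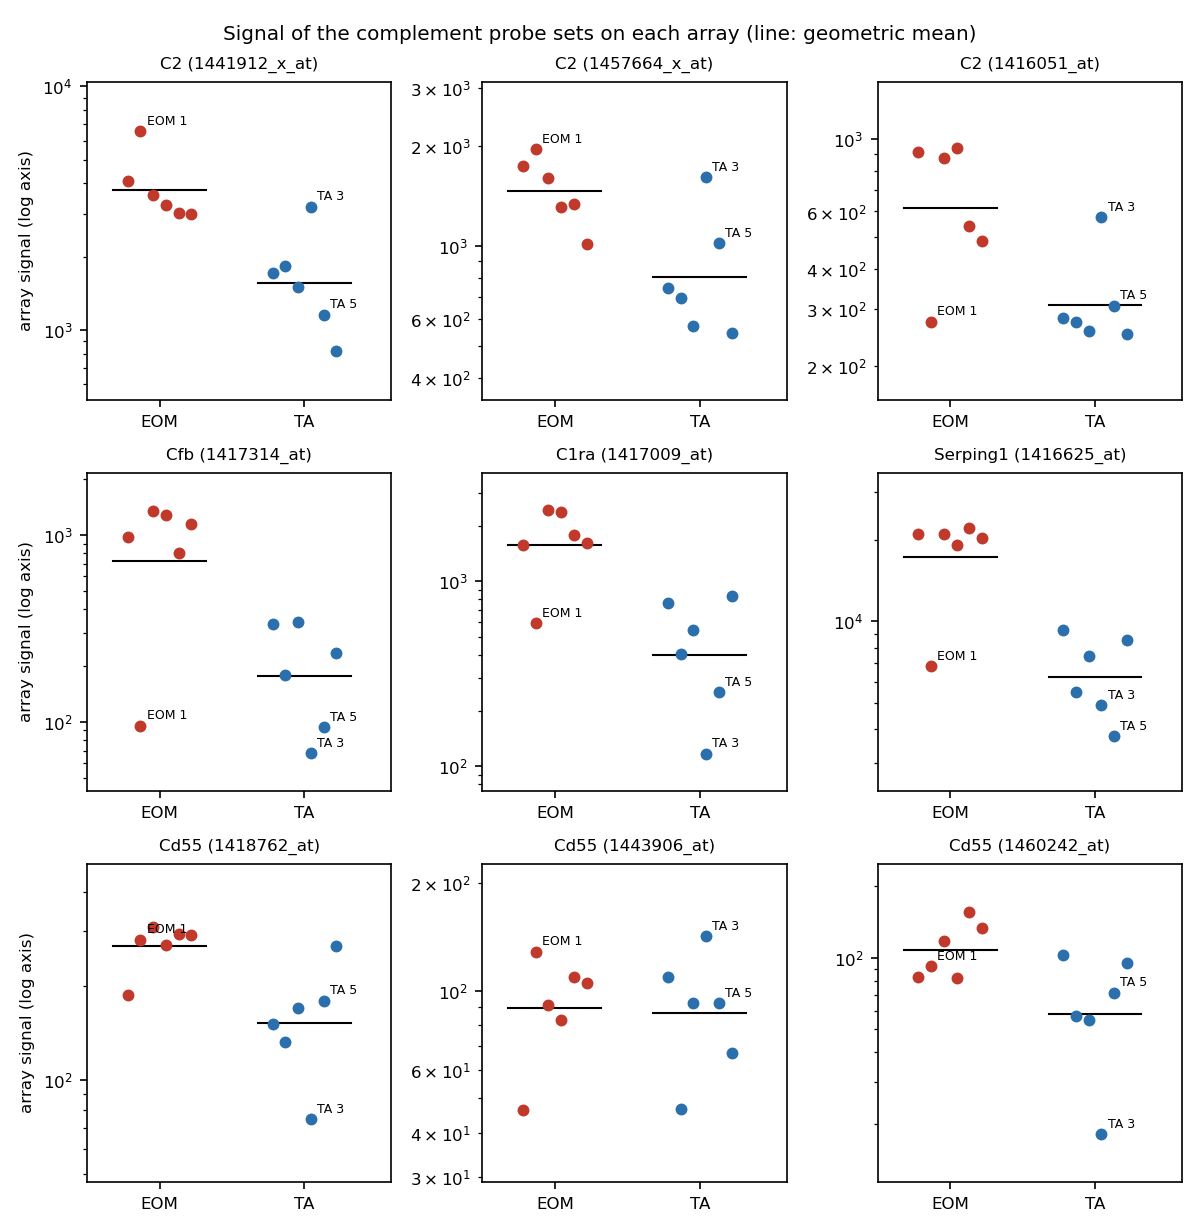
Signal (log axis) of each of the 9 complement probe sets on the 6 EOM arrays and the 6 TA arrays; each point is an array, the line is the geometric mean of the group, and EOM 1, TA 3 and TA 5 are labelled. For Cfb, C1ra and Serping1, 5 EOM arrays lie above the highest TA array and EOM 1 lies among the TA arrays.

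C1ra (probe set 1417009_at), the first protease of the classical pathway, rose in EOM. Its signal was 595 on the lowest EOM array, 1693 at the median and 2424 on the highest, against 117, 475 and 837 in TA. On 5 of 6 EOM arrays it was above the highest TA array, and the lowest EOM array, EOM 1, was above the TA median. The means were 1723 ± 666 in EOM and 486 ± 282 in TA (SD, n = 6 each), with a log2 fold change of 1.92 ± 0.43 (95% interval 1.01 to 2.83, adjusted p = 0.00776). The call held in 28 of 30 alternative fits, with adjusted p from 1.26e-05 to 0.0796, and in all 12 fits that left out 1 array. Its near-identical tandem copy C1rb had no named probe set, and whether the C1ra probes also detect it was not tested.

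C2 was measured by 3 probe sets, all with a positive estimate. The brightest, 1441912_x_at, read 2987 on the lowest EOM array, 3421 at the median and 6547 on the highest, against 825, 1604 and 3211 in TA. Here 4 EOM arrays were above the highest TA array, and TA 3 was the only TA array within the EOM range. The means were 3916 ± 1352 in EOM and 1707 ± 825 in TA (SD, n = 6 each), a log2 fold change of 1.26 ± 0.31 (95% interval 0.61 to 1.91, adjusted p = 0.0147; 0.00020 to 0.0651 over 30 alternatives).

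The other C2 probe sets did not pass with all 12 arrays. Probe set 1457664_x_at averaged 1495 ± 342 in EOM and 867 ± 404 in TA (log2 fold change 0.85 ± 0.28, adjusted p = 0.0762). Probe set 1416051_at averaged 672 ± 277 in EOM and 325 ± 125 in TA (0.96 ± 0.32, adjusted p = 0.0745). TA 3 was the highest TA array for all 3 probe sets, while EOM 1 was the highest EOM array for both probe sets whose name ends in x_at and the lowest for 1416051_at. An x_at name marks probes that can also match other sequences. Without EOM 1, TA 3 and TA 5 all 3 C2 probe sets passed, at 1.25 (adjusted p = 0.000563), 1.10 (0.000638) and 1.40 (0.000241), each in the order in which they are described here. In that fit 8.35% of all probe sets were called higher.

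Cfb (1417314_at), the alternative pathway protease encoded next to C2 on chromosome 17, rose in EOM, and its call rested on which arrays were used. Its signal was 95.3 on the lowest EOM array, 1058 at the median and 1351 on the highest, against 67.8, 206 and 342 in TA. The 5 EOM arrays other than EOM 1 were all above the highest TA array, while EOM 1 lay among the lowest TA arrays. The means were 941 ± 462 in EOM and 208 ± 117 in TA (SD, n = 6 each), a log2 fold change of 1.95 ± 0.54 (95% interval 0.81 to 3.08, adjusted p = 0.0308; 3.39e-06 to 0.148 over 30 alternatives, 15 of them called). Of the 12 fits that left out 1 array, 4 called it, and the call was lost without EOM 0, EOM 2, EOM 3, EOM 5, EOM 6, TA 1, TA 3 or TA 5, with an adjusted p of 0.0588 to 0.0832. Without EOM 1 the change was 2.50 (adjusted p = 3.44e-05), and without all 3 arrays that stand apart it was 1.99 (adjusted p = 7.51e-06).

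Serping1 (1416625_at), the inhibitor of C1r and C1s, rose in EOM and was among the brightest probe sets of the array: its mean over the 12 arrays exceeded that of 99.7% of probe sets. Its signal was 6848 on the lowest EOM array, 20649 at the median and 22104 on the highest, against 3783, 6484 and 9261 in TA. The 5 EOM arrays other than EOM 1 lay close together, between 19153 and 22104, all above the highest TA array. The means were 18406 ± 5743 in EOM and 6571 ± 2165 in TA (SD, n = 6 each), a log2 fold change of 1.46 ± 0.33 (95% interval 0.76 to 2.15, adjusted p = 0.00818; 3.19e-06 to 0.0731 over 30 alternatives, 28 of them called). Without EOM 1 the EOM mean was 20717 ± 1078 (n = 5) and the change 1.72 (adjusted p = 4.01e-05).

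Cd55, the regulator on the cell membrane, did not pass the test with any of its 3 probe sets. The brightest, 1418762_at, read 188 on the lowest EOM array, 287 at the median and 309 on the highest, against 74.9, 161 and 270 in TA. The groups overlapped through EOM 0, the lowest EOM array, and TA 6, the highest TA array. The means were 272 ± 43.4 in EOM and 163 ± 64.1 in TA (SD, n = 6 each), with an estimate of 0.75 ± 0.27 (95% interval 0.17 to 1.33, adjusted p = 0.113; 0.0191 to 0.286 over 30 alternatives, of which the fit with array weights alone called it).

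The dimmer Cd55 probe sets differed from each other in size of estimate. Probe set 1460242_at averaged 111 ± 29.9 in EOM and 66.4 ± 30.5 in TA (0.69 ± 0.32, 95% interval 0.02 to 1.36, adjusted p = 0.232). Probe set 1443906_at averaged 94.0 ± 28.1 in EOM and 91.6 ± 33.1 in TA (0.04 ± 0.30, 95% interval -0.58 to 0.67, adjusted p = 0.968). Its sign turned when single arrays were left out. Cd55b, the neighbouring copy of Cd55, had a mean signal of 6.12 ± 5.03 in EOM and 10.4 ± 9.91 in TA and was under the level filter. Whether the Cd55 probes also detect Cd55b was not tested.

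**Figure D2:**
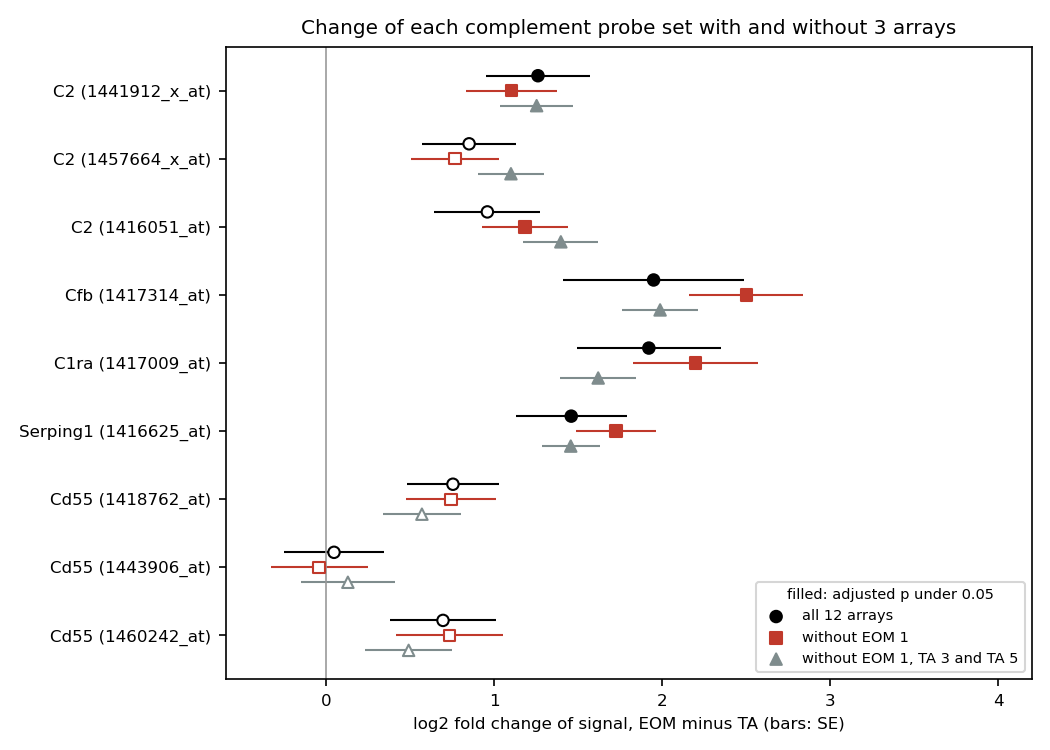
Log2 fold change of signal, EOM minus TA, with its standard error, for each of the 9 complement probe sets, with all 12 arrays, without EOM 1, and without EOM 1, TA 3 and TA 5; filled points had an adjusted p under 0.05. Cfb moved from 1.95 with all arrays to 2.50 without EOM 1, and 1443906_at of Cd55 stayed near 0.

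With all 12 arrays the EOM and TA values overlapped for each of the 5 genes, while 2.33% of all genes lay wholly higher in EOM. Without EOM 1, Cfb, C1ra and Serping1 lay wholly higher in EOM, 3 of the 5 genes, against 7.49% of all genes.

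Whether the 5 genes differed from one another in their change was tested on the log2 ratio of each pair within an array, which cancels the scaling of the array, with a two-sided exact permutation test over the arrays for 10 pairs. With 12 arrays 0 of 10 pairs passed after Benjamini-Hochberg adjustment, and 1 had an unadjusted p under 0.05: the ratio of C1ra to Cd55 was higher in EOM by 1.17 on the log2 scale (exact permutation p = 0.0238, adjusted p = 0.238). Without EOM 1 the ratios to Cd55 were higher in EOM by 1.76 for Cfb, 1.46 for C1ra and 0.98 for Serping1 (exact permutation p = 0.00433, 0.00433 and 0.00649, adjusted p = 0.0216 for each). The ratio of Cfb to Serping1 was higher by 0.78 (exact permutation p = 0.0173, adjusted p = 0.0433). So 4 of 10 pairs passed without EOM 1, and 3 passed without EOM 1, TA 3 and TA 5.

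The promoters of C1ra, which rose, and Cd55, which did not pass the test, are shown as the members with a sequence in the promoter table used here. RefSeq promoter sequences (GRCm38.p6), from 250 bases before to 50 bases from the start of the gene, were found for these 2 of the 5 genes. The C1ra window lies at chr6:124512371-124512670 on the plus strand and the Cd55 window at chr1:130462695-130462994 on the minus strand. Both are written 5' to 3' along the gene, with motif matches in capitals.
C1ra: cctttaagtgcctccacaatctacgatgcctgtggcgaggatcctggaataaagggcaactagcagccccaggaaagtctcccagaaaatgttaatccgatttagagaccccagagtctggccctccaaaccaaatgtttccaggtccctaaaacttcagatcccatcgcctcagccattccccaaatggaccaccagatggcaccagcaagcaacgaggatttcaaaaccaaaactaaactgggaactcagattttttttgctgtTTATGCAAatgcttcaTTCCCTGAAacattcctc
Cd55: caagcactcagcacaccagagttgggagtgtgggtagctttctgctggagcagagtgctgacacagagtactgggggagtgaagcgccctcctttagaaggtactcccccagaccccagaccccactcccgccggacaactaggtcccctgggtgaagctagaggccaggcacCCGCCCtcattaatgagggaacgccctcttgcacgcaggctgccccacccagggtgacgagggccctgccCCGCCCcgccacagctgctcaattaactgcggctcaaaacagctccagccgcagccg
In C1ra the capitals mark TTATGCAA at +17 to +24, a match on the opposite strand to the C/EBP site TTGCNNAA, and TTCCCTGAA at +33 to +41, a match to the STAT site TTCNNNGAA. In Cd55 they mark CCGCCC at -77 to -72 and at -7 to -2, matches on the opposite strand to the GC box GGGCGG. Over 32851 mouse promoters of this length, searched on both strands, 10.8% held the C/EBP letters, 8.30% the STAT letters and 35.7% the GC box. A spaced NF-kappaB site (1.63% of promoters), the interferon-stimulated response element core (3.44%) and the TATA box TATAAA (13.6%) matched neither window. None of the matches overlapped another. The window was 47% G and C in C1ra and 63.3% in Cd55. These are letter matches only.

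Of 42 listed genes 35 had a named probe set and 17 passed the level filter. None of the other complement genes was called higher in EOM by limma with all arrays. Of these 17, 0 were higher and 2 lower (Clu and Cd59a), where 4.05% of all genes were called higher and 6.81% lower. The median change of the 17 was -0.60, against -0.04 over all genes. At an unadjusted p under 0.05, 0 of the 17 were higher and 6 lower, against 10.1% of all genes higher and 13.5% lower. The recognition molecules (4 tested), proteases (2 tested) and receptors (4 tested) had 0 calls in either direction, the soluble regulators had 1 of 4 lower and the membrane regulators 1 of 3 lower. The 6 terminal components with a named probe set, Hc, C6, C8a, C8b, C8g and C9, were all under the level filter.

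Among the proteases, C1s1, the partner that C1r activates, was split by a single EOM array. Its probe set 1424041_s_at read 249.6 on EOM 1 and 9804 to 11260 on the other EOM arrays, against 1206 to 4332 in TA. With all arrays the change was 0.92 ± 0.73 (adjusted p = 0.570), and without EOM 1 it was 1.80 (adjusted p = 0.000183), at 10351 ± 584 in EOM (n = 5) against 3232 ± 1270 in TA (n = 6). C1s1 lies beside C1ra on chromosome 6, and its copy C1s2 had no named probe set. The name ending in s_at marks probes shared by several transcripts, and whether they also detect C1s2 was not tested.

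Clusterin (Clu), a secreted protein that blocks assembly of the terminal attack complex, fell in EOM: 712 to 1372 in EOM against 2692 to 4322 in TA. The groups did not overlap, and the means were 1065 ± 250 in EOM and 3417 ± 698 in TA (SD, n = 6 each; log2 fold change -1.68 ± 0.24, adjusted p = 0.000138). All 4 of its probe sets were called lower, by -1.56 to -1.89. Cd59a, a membrane inhibitor of that complex, fell too, at 150 ± 76.0 in EOM against 401 ± 114 in TA (-1.40 ± 0.30, adjusted p = 0.00558), and a further probe set of it had an estimate of -0.27 (adjusted p = 0.786).

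C1qb, a chain of the recognition molecule C1q that macrophages are known to make, averaged 38.2 ± 19.9 in EOM and 152 ± 126 in TA (-1.37 ± 0.44, adjusted p = 0.0638), and its dimmer tested probe set passed (-2.31, adjusted p = 0.0130). Itgb2, the leukocyte integrin chain shared by complement receptors, averaged 49.6 ± 35.7 in EOM and 206 ± 154 in TA (-1.50 ± 0.50, adjusted p = 0.0762). Without EOM 1, C1s1 was called higher and Clu, Cd59a and C1qb lower, where 10.0% of all genes were called higher and 10.5% lower. Without EOM 1, TA 3 and TA 5, 1 of the 17 was higher and 5 were lower. In that fit the shares of all genes were 10.6% and 11.2%.

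**Figure D3:**
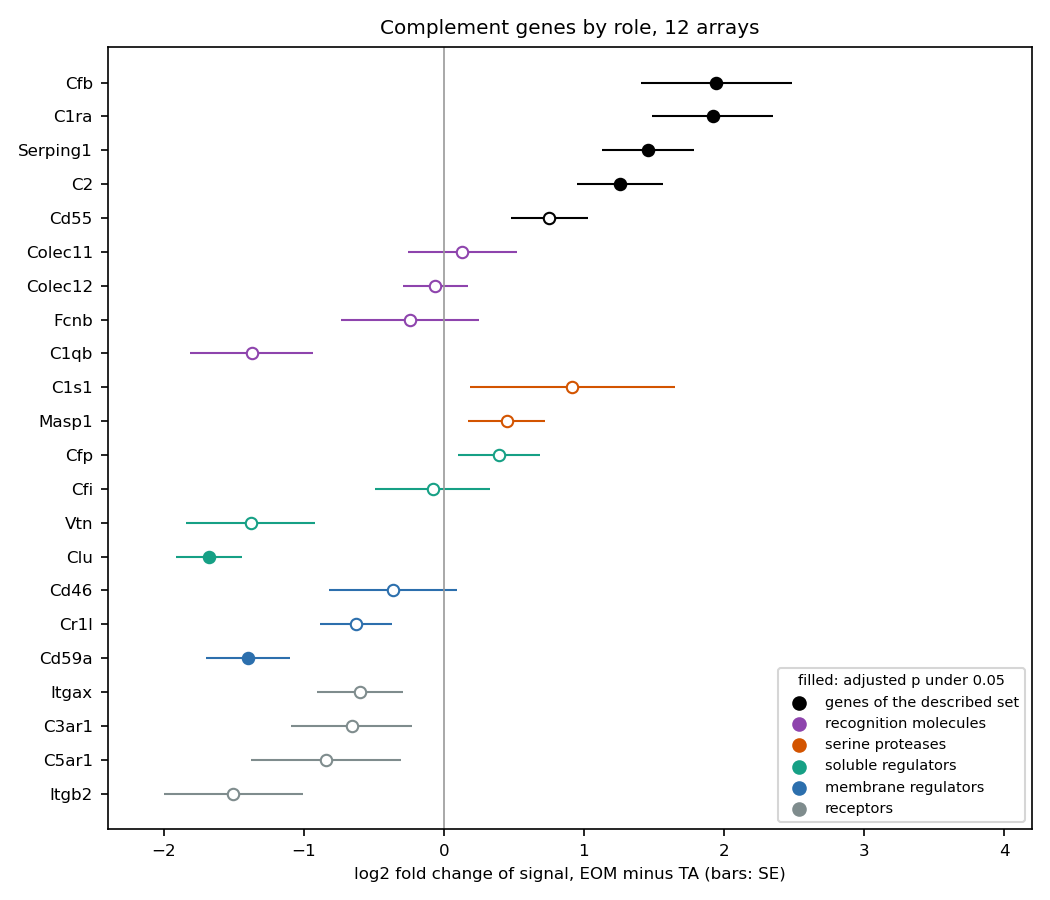
Log2 fold change of signal, EOM minus TA, with its standard error, for the 5 genes described and the 17 other tested complement genes, coloured by role, over 12 arrays; filled points had an adjusted p under 0.05. C1ra, Cfb, Serping1 and C2 are filled on the right, and Clu and Cd59a on the left.

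Genes known to be induced together with complement were counted beside the set. With all arrays, 4.05% of all genes tested were called higher in EOM and 6.81% lower. Of 18 tested interferon-inducible genes 1 rose, Gbp2, an interferon-induced GTPase (1555 ± 622 in EOM against 636 ± 137 in TA, 1.19 ± 0.29, adjusted p = 0.0121), 0 fell, and the median change was 0.00. Of 20 tested acute phase and inflammatory genes 2 rose and 0 fell, with a median of 0.25. These were Ptx3, a secreted pattern receptor that binds C1q (5332 ± 3568 in EOM against 577 ± 420 in TA, 3.08 ± 0.53, adjusted p = 0.000905), and Cebpb, a C/EBP transcription factor (3761 ± 1107 in EOM against 1951 ± 548 in TA, 0.93 ± 0.27, adjusted p = 0.0397). Ptx3 was called in all 31 alternative fits, while Cebpb lost its call in 18 of 31. At an unadjusted limma p under 0.05, 5 of the 18 interferon-inducible genes were higher and 0 lower. Of the 20 acute phase genes 3 were higher and 1 lower, against 10.1% of all genes higher and 13.5% lower. Without EOM 1, 4 interferon-inducible and 6 acute phase genes were called higher and 0 lower, against 10.0% of all genes higher and 10.5% lower. Leaving out EOM 0, EOM 3, EOM 5, TA 0, TA 1 or TA 5 singly left 1 acute phase gene called higher. Without EOM 1, TA 3 and TA 5, 4 interferon-inducible and 4 acute phase genes were higher, and 0 and 1 were lower. In that fit 10.6% of all genes were called higher and 11.2% lower.

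Markers of other cell types moved with the comparison. Beside these counts, 4.05% of all genes were called higher in EOM and 6.81% lower. The shares were 10.0% and 10.5% without EOM 1, and 10.6% and 11.2% without EOM 1, TA 3 and TA 5. Of 10 endothelial markers 8 fell in EOM (median -2.92), led by Egfl7 (-4.75), Vwf (-4.00) and Cdh5 (-3.65), and their summed signal was 1464 to 2494 in EOM against 9440 to 23221 in TA. Of 7 pericyte and smooth muscle markers 6 fell (Myh11 -4.03, Rgs5 -3.96, Acta2 -3.85), with sums of 3082 to 5838 in EOM against 14888 to 27725 in TA. The vascular sums did not overlap between the groups.

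Of 10 macrophage markers 5 fell (Ctss -3.47, Tyrobp -2.90, Cd14 -2.34), with sums of 303 to 1626 in EOM against 1100 to 7432 in TA. Of 6 pan-leukocyte markers 4 fell (Ptprc -2.63, Cd53 -2.42, Laptm5 -2.26), with sums of 374 to 4164 in EOM, the highest on EOM 1, against 4073 to 9607 in TA. Of 5 tendon markers 4 fell (Tnmd -3.78, Fmod -3.41, Thbs4 -2.84; sums of 2451 to 11872 in EOM against 30406 to 106464 in TA). Of 5 adipocyte markers 4 fell (Pparg -2.86, Fabp4 -2.28, Lpl -1.86; sums of 4407 to 8877 in EOM against 19641 to 32294 in TA), while Adipoq, Retn, Cidec and Lep were under the level filter. In each of these lists, the vascular ones included, 0 genes were called higher. The pericyte marker Abcc9 had a positive estimate, at 2440 ± 905 in EOM against 1628 ± 1533 in TA (0.94 ± 0.49, adjusted p = 0.314). Without EOM 1 the highest pericyte estimate was 1.21, and 1 pericyte marker was higher at an unadjusted limma p under 0.05. Without EOM 1, the genes that fell numbered 8 endothelial, 6 pericyte, 6 macrophage, 5 leukocyte, 5 tendon and 4 adipocyte, and without EOM 1, TA 3 and TA 5 they numbered 9, 6, 6, 4, 5 and 4.

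Fibroblast markers were bright in both groups. Of 10, 3 rose and 0 fell in EOM: Dpt (1.90), Mfap5 (1.45) and Pdgfra (1.18). The other 7 were not called. Their estimates were 1.54 for Lum, 0.84 for Dpp4, 0.16 for Dcn and 0.00 for Col3a1. Those of Col1a1 (-0.84), Gsn (-0.14) and Col1a2 (-0.09) were below 0. The summed signal of the 10 was 122352 at the lowest, 148934 at the median and 280930 at the highest in EOM, on EOM 1. In TA it was 94619, 133065 and 213105, so the sums overlapped. Bright markers weigh most in this sum. Gsn, the brightest, averaged 53628 ± 49786 in EOM and 54166 ± 33009 in TA, while Pdgfra averaged 3819 ± 1408 and 1603 ± 472. Dpt was called in all 31 alternative fits, while Mfap5 lost its call in 22 and Pdgfra in 15. The number of fibroblast markers called higher was 5 without EOM 1 and 5 without EOM 1, TA 3 and TA 5. It was 1 when any of EOM 0, EOM 2, EOM 3, EOM 5, EOM 6, TA 3, TA 5 or TA 6 was left out singly. Of all genes, 10.0% were called higher without EOM 1 and 10.6% without the 3 arrays. Without EOM 1 the lowest fibroblast estimate was -1.09, and 1 marker was lower at an unadjusted limma p under 0.05.

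The remaining lists held few calls. Of 5 myogenic markers 1 fell (Acta1 -1.66), with sums of 59.9 to 477 in EOM against 251 to 1049 in TA, and Pax7, Myf5 and Myh4 were under the level filter. That count was 2 without EOM 1 or TA 1, 3 without EOM 1, TA 3 and TA 5, and 0 when EOM 0, EOM 3, EOM 6, TA 2, TA 5 or TA 6 was left out singly. The shares of all genes called higher and lower were 4.05% and 6.81% with all arrays. They were 10.0% and 10.5% without EOM 1, and 10.6% and 11.2% without EOM 1, TA 3 and TA 5. The 4 Schwann cell markers had 0 calls by limma and 0 with an unadjusted p under 0.05, with sums of 521 to 15937 in EOM, the highest on EOM 1, against 1256 to 3080 in TA. The 5 epithelial, gland and retinal markers also had 0 calls by limma, 1 with an unadjusted p under 0.05, with sums of 134 to 609 in EOM against 165 to 455 in TA. Both lists kept 0 calls without EOM 1 and without all 3 arrays. The part of these cell types in the complement values was not tested.

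**Figure D4:**
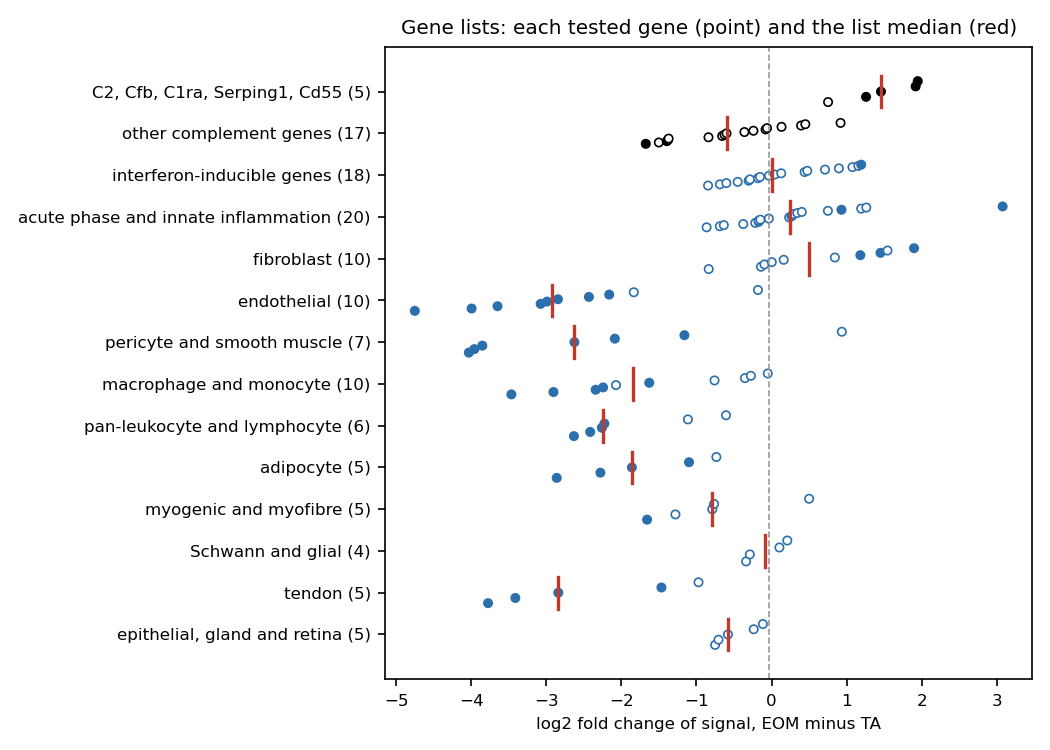
Log2 fold change of signal, EOM minus TA, of each tested gene (points) in the complement set, the other complement genes, the 2 induction lists and the 10 cell type marker lists, with the list median in red and the median of all 13068 genes as a dashed line. The complement set lies at a median of 1.46, the fibroblast list at 0.50 and the endothelial list at -2.92.

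The genes with the most alike profile over the 12 arrays were found among 13063 genes by the root mean square difference of log2 profiles, each centred on its own mean. For Serping1 these were Naalad2 (0.25) and Antxr1 (0.27), against a spread of 0.90 of Serping1 around its own mean. For C1ra they were Atrnl1 (0.34) and Uggt2 (0.34; own spread 1.25), and for Cfb Ddr2 (0.31) and Rnd3 (0.36; own spread 1.43). For C2 they were Cntn1 and Gxylt2 (0.27 each; own spread 0.81), and for Cd55 Man2b1 (0.20) and Fbxw8 (0.22; own spread 0.54). Every one of these profiles includes the difference between EOM and TA.

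Genes beside the members in the RefSeq order (GRCm38.p6) were read within 5 places on each side. Of 28 tested neighbours that are no members, 1 was called higher in EOM and 1 lower, both near Cd55 on chromosome 1: Thsd7b (2.89, adjusted p = 9.94e-05) and Cxcr4, a chemokine receptor (-3.27, adjusted p = 8.74e-05). Thsd7b and Cxcr4 are named because they are the only calls. Of all genes tested, 4.05% were called higher and 6.81% lower, and 1 of 28 is below both shares. The other neighbours of C2, Cfb, C1ra and Serping1 had 0 calls by limma, and Hspa1b (-0.98) and Timm10 (0.65) alone had an unadjusted p under 0.05 there.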

How the data were processed

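RNA of 6 EOM and 6 TA side population preparations was amplified in 2 rounds and hybridized to arrays, per the labels' protocols. The deposited values are signal intensities that the authors summarized per probe set with MAS5, per the submitters' processing notes. In every column the mean after trimming 2% at each end was 150.0, and present calls, scan dates and raw probe values were not used here. The test used log2(signal + 16). The 64 control probe sets and the 40% with the lowest mean log2 value were removed, and limma 3.58.1 (R 4.3.3) compared EOM with TA over the 27023 left (intensity trend, two-sided, Benjamini-Hochberg over all tested, threshold 0.05). The added 16 makes changes of dim probe sets look smaller. Gene names came from the platform's probe-to-gene table (34958 probe sets with 1 symbol, 932 with several and 9160 with none, the last unnamed here) and represented by their brightest tested probe set. No columns held identical values. Every member was named; among other complement genes, those called and the largest change per role; per list, up to 3 called genes; per member, the 2 most alike genes. Members and lists were chosen with earlier results of these data known. Same-numbered arrays did not deviate together (r from -0.32 to 0.16), so numbers were not treated as pairs. The limma p-values set the difference between group means against the spread between preparations, which includes differences in array quality. The number of arrays limits the precision. The code was tested on simulated data in which 100 of 27023 probe sets changed by 1 on the log2 scale and 100 by 2. It called 11 and 68 of them, with 4 false calls, so a gene not called here may still differ. The simulated noise was independent between probe sets, no array stood apart, and fewer probe sets changed than were called in the data. These counts therefore need not hold for the real arrays. Alternatives were scaling, added constant, filter, weights, blocks and left-out arrays.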

Additional observations from a re-analysis of the deposited data

Results flagged for a closer look

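In 6 of 28 groups of 6 arrays examined, 1 array lay far from the others, its gap to the nearest array divided by the range of the group exceeding Dixon's critical value at the 95% level (chance gives about 1 group in 20). EOM 1 was low for Serping1 (6848, gap 0.878 of the range), Cfb (95.3, gap 0.793), C1ra (595.2, gap 0.687) and C1s1 (249.6, gap 0.963). TA 3 was high for C2 probe set 1416051_at (576.6, gap 0.761), and EOM 0 was low for Cd55 probe set 1418762_at (187.8, gap 0.724). EOM 1 and TA 3 also had the highest median signals, 87.2 and 69.6, and high beta-actin 3' to 5' ratios, 104 and 165. Whether these account for the gaps was not tested.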

How the results depend on the processing

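Of the 5 members, 4 were called higher in EOM with all arrays. Median centring called 1, C2 (Cfb then had an adjusted p of 0.148, C1ra 0.0796 and Serping1 0.0731), quantile normalization called 3 (Cfb lost, 0.0981), and leaving out arrays or replicate numbers gave 0 to 4, the lowest without both arrays numbered 5. No setting called a member lower. Other complement genes called higher numbered 1 with array weights and 1 without EOM 1, TA 3 and TA 5 (0 to 1 with arrays left out), and those lower 5 with array weights, 5 with the beta-actin ratio as covariate and 5 without the 3 arrays (2 to 5 with arrays left out). Over all probe sets called higher in EOM, 866 became 555 with median centring, 2616 with array weights and 2256 without the 3 arrays (496 to 2128 with arrays left out), and all probe sets called lower in EOM, 1359, became 890, 2872 and 2419 (882 to 2233). Member pairs that differed numbered 3 without the 3 arrays and 0 to 4 with arrays left out. Cd55 1443906_at turned sign without EOM 1 (-0.04), EOM 5 (-0.0028), TA 1 (-0.10), TA 6 (-0.02) and numbers 1 (-0.19) and 6 (-0.05), with estimates of -0.19 to 0.26 over the fits with arrays left out. With the replicate number as a fixed block, 4 members were called, 607 probe sets were higher and 1025 lower, and as a random block 4, 750 and 1205; of 6 same-numbered pairs 1 was best matched to its own number. The causes were not tested. The array scale is relative, probe sequences were not used, and dim Cd55 probe sets limit what could be seen.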
